A study of Drosophila melanogaster with 14 samples.

Results

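CP190 (centrosomal protein 190) is a zinc finger and BTB-domain protein of Drosophila that sits on chromatin together with insulator proteins, which separate regulatory domains of the genome. It does not read DNA by itself at most of its sites and is brought there by DNA-binding partners. dCTCF, the fly homologue of CTCF, is one of these partners, and others are BEAF-32, Su(Hw), Pita and ZIPIC. CP190 is also known at the promoters of broadly active genes, often where neighbouring genes lie close together. The X-linked CP190 peaks described here were called in both genotypes of the study and overlapped no peak of dCTCF. They were chosen by 3 conditions from the wild-type CP190 list: a place on the X chromosome, an overlap of at least 1 bp with a CP190 peak of the deletion line, and no overlap with any peak of the 4 HA and dCTCF-antibody lists. The list held 2517 peaks in all, 476 of them on X, and 366 peaks met the rule. On the autosomes (2L, 2R, 3L, 3R and 4) 1537 peaks met the same conditions, and a further 3 lay on other scaffolds.

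The flies were whole Drosophila melanogaster adults aged 2 to 3 days, and their chromatin was assayed by ChIP-seq. The labels give Oregon-R as the strain of every sample and 2 genotypes, dCTCFwt and dCTCFdelta705-733, which lacks those residues of dCTCF (the deletion line). Antibodies against HA, dCTCF and CP190 were used with 2 replicate libraries per genotype, and 1 mouse and 1 rat preimmune library, of genotype wt, served as controls, for 14 libraries in total. The labels give neither the sex of the flies nor how the HA-tagged protein is expressed, and whole flies mix all tissues. Each antibody and genotype has 1 peak list made from both replicates, so no value below has a spread between replicates and no test between genotypes could be made. The files used give no counts of reads, so sequencing depth is unknown. Intervals in parentheses are 95% intervals over peaks or genes, Wilson for shares and exact binomial for medians, and cover counting error only. Fold enrichment is the authors' own ratio of CP190 ChIP over the mouse preimmune library and is read only within its list. Positions refer to the Release 6 assembly (dm6) and are 1-based.

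All 476 X-linked peaks of the wild-type list can be accounted for. Besides the 366 members, 79 were shared with the deletion line but overlapped an HA or dCTCF peak, 20 had neither a deletion partner nor a dCTCF peak, and 11 overlapped a dCTCF peak without a deletion partner. The members thus made up 76.9% of the X-linked peaks (72.9 to 80.5), and the peaks of the same definition made up 75.5% of the autosomal ones (73.6 to 77.3). These shares follow from the rule and are given as a description. X and autosomes were also alike in their share of CP190 peaks that overlapped dCTCF or HA, at 18.9% (15.6 to 22.7) and 21.2% (19.5 to 23.0). The lack of a dCTCF peak is a statement about lists that end at a threshold, so weak dCTCF signal at a member would not be seen. The gap to the nearest listed HA or dCTCF peak, which the rule bounds from below, had a median of 52.2 kb (46.0 to 62.5) on X and 44.6 kb (41.9 to 48.3) on autosomes. An HA or dCTCF peak lay within 1000 bp of 4 X members (1.09%) and of 1.43% of the autosomal peaks. The closest was the peak at chrX:3676673-3678762 inside Mnt, which encodes a Max-binding repressor, with a gap of 793 bp. Next came a peak inside CG1632 at 847 bp and one inside ct, the gene of the Cut homeodomain protein, at 930 bp. The peak inside CG1632 was the 1 member whose deletion partner itself overlapped an HA or dCTCF peak. On the other side of the limit, the smallest overlap that removed an X peak was 284 bp, inside inc, so no peak was decided by a few bases. The smallest overlap of a member with its deletion partner was 186 bp. At the very top of the wild-type list stood an X peak that missed the rule. This peak between brn and cib at chrX:4105239-4106756 had the highest fold of the list (129.7) and lay 237 bp from the nearest deletion CP190 peak. The deletion list ends at a limit of the global IDR, a score of how well peaks repeat, and not at a fold. Some very strong members came close to this limit there, with −log10 global IDR of 2.02 inside DIP-alpha and 2.06 at SkpA. Other strong members lay further from it, such as fzr with 2.36. Whether CP190 was lost at the brn peak or the peak only missed the limit was not tested.

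The density of members was compared between chromosomes. X carried 15.5 members per Mb, and the autosomes together carried 14.0 per Mb, with 15.0 on 2L, 14.1 on 2R, 13.1 on 3L and 14.1 on 3R. Of all 1903 peaks of the definition on these arms, 19.2% (17.5 to 21.1) were on X, which holds 17.6% of the bases and 15.8% of the protein-coding genes in the annotation. Values per Mb and shares of bases count long stretches without members, which differ between arms. The longest between neighbouring members was 810 kb on X and 562 kb on 2L, but 3880 kb on 2R, 5109 kb on 3L and 1092 kb on 3R. Density without such stretches was not computed, so the lead of X per Mb may reflect them. Genes are spaced more widely on X, at 93.3 protein-coding genes per Mb against 107 per Mb on autosomes. Relative to genes the difference was therefore larger, with 16.7 members per 100 genes on X and 13.1 on autosomes. Of the 2197 protein-coding genes of X, 230 had an end within 200 bp of a member summit, which is 10.5% (9.26 to 11.8). On autosomes 913 of 11725 genes did, which is 7.79% (7.32 to 8.29), and the 4 large arms ranged from 7.54% to 8.25%. The interval of X overlapped that of 3L (7.28 to 9.34) and lay above that of the other 3 large arms. A similar gap appeared when every wild-type CP190 peak was counted, with 13.6% (12.2 to 15.1) of X genes and 10.0% (9.49 to 10.6) of autosomal genes. The full list consists mostly of the peaks of the definition (76.9% on X and 75.5% on autosomes), so this is not a separate observation.

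**Figure D1:**
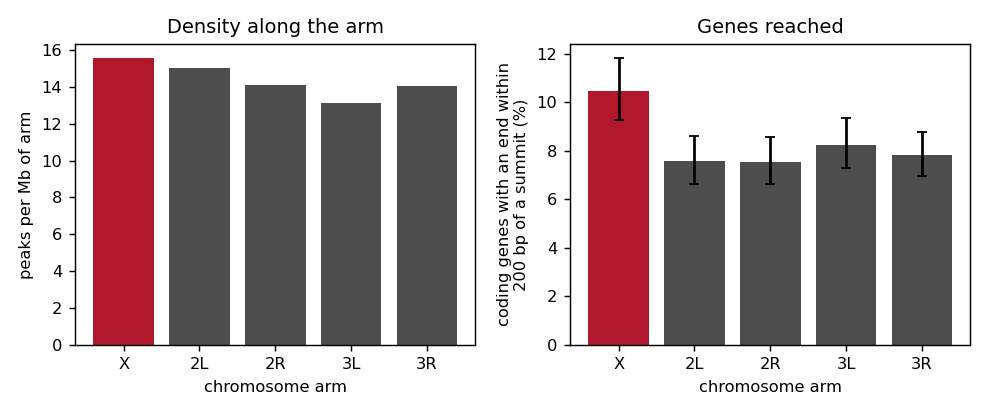
CP190 peaks of both genotypes without an HA or dCTCF peak, by chromosome arm, as peaks per Mb of arm (left) and as the share of protein-coding genes with an end within 200 bp of a peak summit (right, bars with 95% Wilson intervals); chromosome 4, with 11 peaks, is not drawn. X (red) stands at 15.5 peaks per Mb and 10.5% of genes, while the 4 large autosomal arms range from 13.1 to 15.0 per Mb and from 7.54% to 8.25%. Arm length includes stretches without such peaks, the longest being 810 kb on X and 5109 kb on 3L.

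The strength of the wild-type peaks was alike on X and autosomes. X members ranged from 2.48-fold to 97.6-fold, with a median of 6.81-fold (6.12 to 7.85) and quartiles of 4.25 and 13.3. The autosomal peaks had a median of 6.76-fold (6.40 to 7.21) and quartiles of 4.14 and 13.2. Ranked among all 1903 peaks of the definition, the median X member stood at 49.8% of the list (44.4 to 54.5), where a small percentage means a strong peak. In the deletion list, the partners of X members had a median of 11.3-fold (10.1 to 12.5), and those of autosomal peaks 10.4-fold (9.70 to 11.1). Peak width was also alike, with a wild-type median of 790 bp (757 to 824) on X and 815 bp (783 to 847) on autosomes. Shared X peaks that overlapped dCTCF or HA had a higher median, 17.7-fold (11.4 to 22.5, n = 79), and the autosomal peaks of this kind had 12.8-fold (11.5 to 15.3). Their share within 200 bp of a gene end was 57.0% (46.0 to 67.3) on X and 43.7% (38.7 to 48.8) on autosomes, and these intervals overlapped. Between the 2 sets of calls behind the wild-type list, the ratio of −log10 p had a median of 1.00 (0.985 to 1.02) and a range from 0.651 to 1.87 on X, among peaks that were listed because the sets agreed. The 20 X peaks with neither a partner nor dCTCF were weak apart from the brn peak, with a median of 3.21-fold (2.85 to 3.57).

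**Figure D2:**
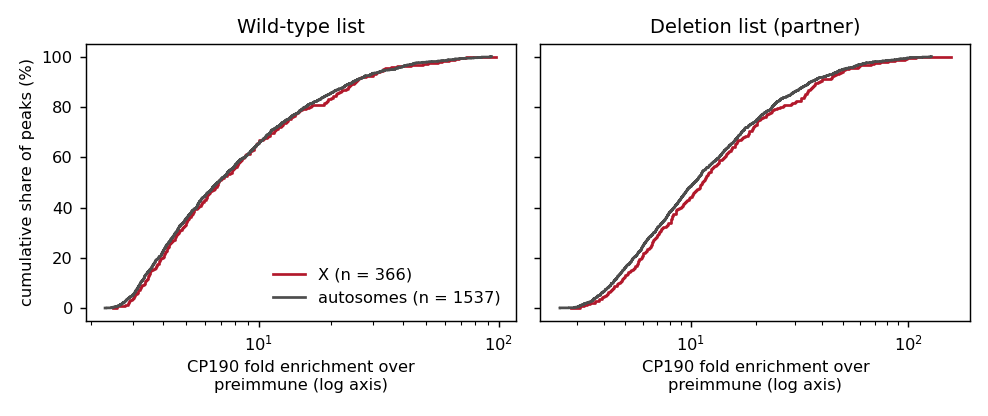
Cumulative share of CP190 peaks by fold enrichment over preimmune (log axis) for the 366 X members (red) and the 1537 autosomal peaks of the same definition (grey), in the wild-type list (left) and for their partners in the deletion list (right). The wild-type curves nearly coincide, with medians of 6.81 and 6.76, and in the deletion list the X curve lies slightly to the right, with medians of 11.3 and 10.4.

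The 10 strongest X members had wild-type folds from 53.2 to 97.6. Their partners had deletion folds from 59.2 to 157, and all 10 stayed among the first 65 of the 1903 peaks in the deletion list. Summits of the 2 genotypes lay at most 31 bp apart at these 10 peaks, 7 of them were within 200 bp of a gene end (51.1% of all X members were), and 7 had their summit in no protein-coding gene (58.5% of all X members). The strongest member of both genotypes lay at chrX:3569207-3571369, inside DIP-alpha, which encodes a cell-surface immunoglobulin protein of neurons, and ppk8, a member of the pickpocket family of sodium channels. It had 97.6-fold enrichment in wild type, place 8 of all 2517 peaks, and 157-fold in the deletion list, place 1 of 3164. Its −log10 p was 3315 in the first set of wild-type calls and 3195 in the second. The peak between spirit and CG12065 at chrX:8573239-8575286 followed, with 73.1-fold in wild type and 97.1-fold in the deletion list. At chrX:4666227-4667875 the summit lay 96 bp from an end of fzr, which encodes the Cdh1-type activator of the anaphase-promoting complex, with 68.2-fold and 98.2-fold. The peak between bif and PhKgamma, the catalytic subunit of phosphorylase kinase, stood at 66.6-fold and 96.6-fold, with its summit 112 bp from an end of PhKgamma.

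The widest X member, 4163 bp at chrX:655710-659872, covered an end of SkpA, which encodes a subunit of SCF ubiquitin ligases, with 66.1-fold and 109-fold. At chrX:7096844-7099119 a peak of 62.3-fold and 81.8-fold lay 112 bp from an end of Sxl, the switch gene of sex determination in flies. Between CG16903 and Unc-76, which encodes an adaptor of axonal transport, the summit at 59.4-fold and 80.6-fold was 97 and 108 bp from their facing ends. A peak of 58.3-fold and 74.2-fold covered an end of HisRS, the histidyl-tRNA synthetase gene, inside the annotated span of Bx. The last of the 10 lay beside CG3626 (56.0-fold and 86.5-fold), 54 bp from its end, and inside CG42699 and CG3097 (53.2-fold and 59.2-fold). Within the 1903 peaks, the peak at SkpA went from place 20 by wild-type fold to place 7 by deletion fold, and that inside CG42699 and CG3097 from place 40 to 65. The other widest members were the peak at HisRS (2932 bp) and one inside Appl, the gene of the fly homologue of the amyloid precursor protein (2587 bp, 12.7-fold). Among the weakest members were peaks inside CG32683 (2.56-fold) and dnc (2.58-fold), beside CG4239 (2.78-fold), and inside baz, the gene of the polarity protein Par-3 (2.82-fold). Their deletion folds ran from 3.08 to 3.75.

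**Figure D3:**
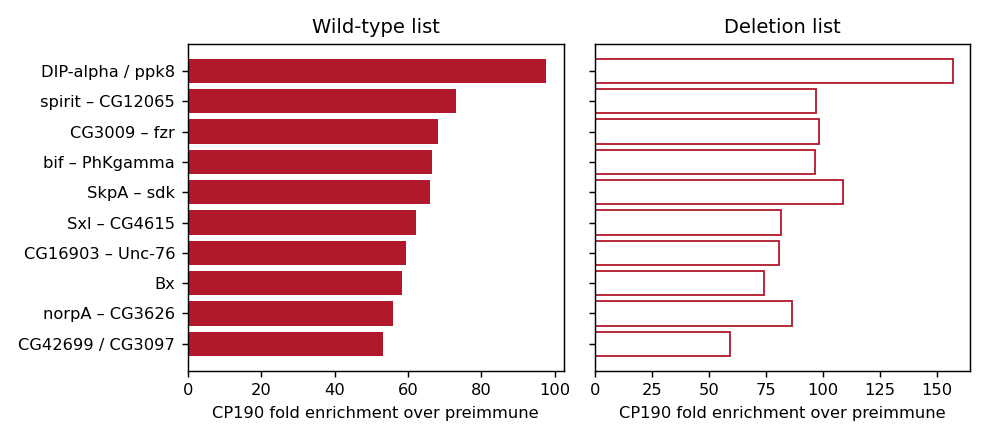
Fold enrichment of CP190 over preimmune at the 10 strongest X members in the wild-type list (left, filled bars) and at their partners in the deletion list (right, open bars), named by the genes that hold or flank the summit. The peak inside DIP-alpha and ppk8 is the strongest in both lists, at 97.6-fold and 157-fold, and the 2 lists have different scales.

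The position of summits relative to genes did not enter the rule. On X, 187 of 366 wild-type summits lay within 200 bp of an end of a protein-coding gene, which is 51.1% (46.0 to 56.2). The share on autosomes was 47.9% (45.4 to 50.4), and over all wild-type CP190 peaks on the arms it was 47.8%, so the X members stood near the background of the list. Bases within 200 bp of such an end make up 6.48% of X and 7.16% of the autosomes. Starts and ends of genes could not be told apart, because the gene table gives no strand. With deletion summits the X share was 50.0% (44.9 to 55.1), and at 179 members both summits met the limit. The summit lay between protein-coding genes less than 1000 bp apart at 120 X members (32.8%, 28.2 to 37.8), in a kind of gap that takes 1.48% of the X sequence. On autosomes this share was 30.1% (27.9 to 32.5). Ends of 2 or more genes lay within 200 bp of the summit at 46 X members, or 12.6%, and at 12.5% of the autosomal peaks. Noncoding genes had an end this close to few members on X or autosomes, with 1.37% and 1.30% for lncRNA genes, 1.09% and 1.04% for antisense RNA genes and 0.546% and 0.586% for tRNA genes. In all, 255 X members lay within 1000 bp of a gene end, 78 were inside a gene and farther from its ends, and 33 were outside genes and farther away. The inside group made up 21.3% on X (17.4 to 25.8) and 17.5% on autosomes (15.7 to 19.5), and the intervals overlapped.

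Gene ends were then set against the strength of the peak. The 1903 peaks were divided into 4 groups of nearly equal size by wild-type fold. From the strongest group to the weakest, the share of X summits within 200 bp of a gene end was 46.7%, 57.6%, 50.5% and 49.4%, with between 87 and 95 peaks in each. All 4 intervals overlapped, from 36.9 at the lowest bound to 67.2 at the highest. The autosomal shares were 39.4% (34.7 to 44.4), 45.3%, 48.6% and 58.1% (53.1 to 62.9), so that weaker autosomal peaks were nearer to gene ends. In the weakest group the X interval (39.2 to 59.7) overlapped the autosomal one, and a difference in trend was not tested. CP190 peaks called in the deletion line alone, without dCTCF or HA, had a higher share close to gene ends, with an interval above that of the members. On X, 115 of 172 such peaks were (66.9%, 59.5 to 73.5), with a median of 3.79-fold in the deletion list (3.63 to 3.99). On autosomes 59.5% (55.6 to 63.3) of 610 such peaks were within 200 bp. The comparison above takes members of all strengths. Against the weakest group of shared peaks, the intervals of these deletion-only peaks overlapped on autosomes (53.1 to 62.9 in that group). On X they overlapped only just (39.2 to 59.7 in that group).

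**Figure D4:**
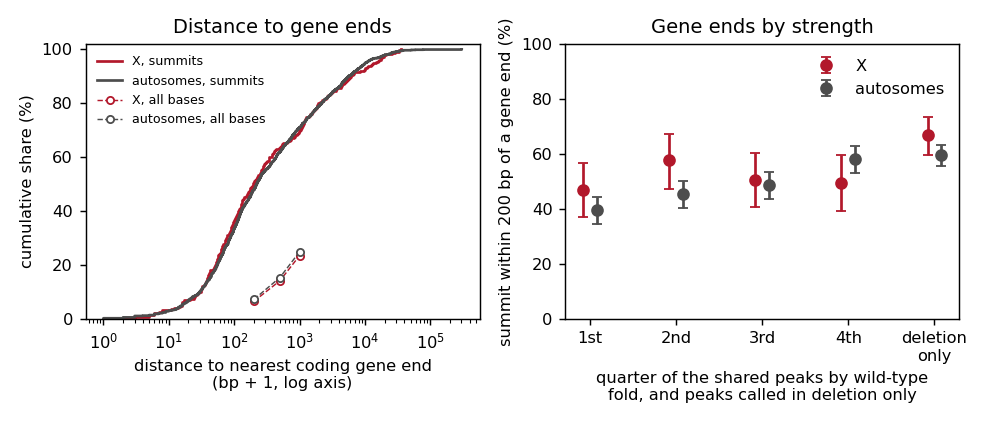
Left, cumulative share of wild-type CP190 summits by distance to the nearest protein-coding gene end (log axis, bp plus 1) on X (red) and autosomes (grey), with the share of all bases within 200, 500 and 1000 bp as open circles. Right, share of summits within 200 bp of a gene end, with 95% Wilson intervals, by strength group of the shared peaks (1st is the strongest) and for peaks called in the deletion line alone; autosomal shares go from 39.4% to 58.1% across the groups and X shares lie between 46.7% and 57.6%.

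Genes of several kinds were looked up on X by lists. Of 61 listed genes found on X, 20 (32.8%) had a member summit inside or within 1000 bp, against 467 of all 2197 protein-coding genes of X (21.3%). The listed genes include the noncoding genes roX1 and roX2, both with a member, and the same peak stands for Cp7Fb and Cp7Fc. Long genes have more room for a peak, and length was not matched. The lists are short and were chosen with earlier results known, so the counts are descriptions. Ribosomal protein genes had a member at 8 of 14. The strongest lay 250 bp from an end of RpL17 (43.3-fold), with another at its opposite end (19.4-fold), 148 bp from the phenylalanine tRNA gene tRNA:Phe-GAA-1-2. RpS15Aa also had a pair, at 31.9-fold and 6.05-fold. Single peaks lay near RpS14a (25.9-fold), RpL7A (16.6-fold), RpL22 (14.2-fold), RpL37-1 (6.84-fold), RpS10b (3.53-fold) and RpS6 (3.50-fold). Those near RpS14a, RpL37-1 and RpS6 were closer to an end of the neighbouring gene, which was Dhdds, drd and bys.

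Both roX genes, whose RNAs are part of the dosage compensation complex that acts on the male X, had a member at 1 end. At roX1 the summit lay 21 bp past the upper end of the gene, with 25.4-fold enrichment in wild type and 30.7-fold in the deletion list. At roX2 it lay 309 bp past the upper end, with 19.1-fold and 25.8-fold, and was closer to nod, a kinesin-like gene, at 31 bp. No member was found at mof, which encodes the acetyltransferase of that complex. Among 5 listed genes of sex determination on X, Sxl alone had a member, and sc, sisA, run and snf had none. Of 24 listed developmental genes and classical X markers, 6 had one. These were y (21.7-fold), if (20.1-fold), ct (10.8-fold), g (8.65-fold), f (5.78-fold) and dnc, the cAMP phosphodiesterase gene, with 4 members from 2.58-fold to 29.9-fold. Only 1 of the 6, g, had an end within 200 bp of a member summit. The summit near if was closer to an end of goe (66 bp against 213 bp), and that inside f lay 37 bp from an end of CG8675. The nearest gene end to the 29.9-fold summit inside dnc was that of Sgs4, at 1787 bp. Of 10 listed chromatin protein genes, e(y)3 had one (10.6-fold).

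A further list held 6 eggshell genes of X. They were dec-1, which lies apart, and the chorion genes Cp36, Cp38, Cp7Fa, Cp7Fb and Cp7Fc. This chorion group is amplified in ovarian follicle cells of females. A member of 6.59-fold lay 55 bp from an end of Cp7Fb and within 1000 bp of Cp7Fc. No member lay within 1000 bp of Cp36 or Cp38. Within 100 kb of Cp38 there were 7 members. Of these 5 had wild-type folds from 4.22 to 7.20, at places 908 to 1416 of 1903, a further one beside Trf4-1 had 15.7-fold, and the peak between spirit and CG12065 described above lay 90.8 kb away. By fold, the peak at Cp7Fb took place 977 among wild-type peaks and 711 among their deletion partners.

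Members were unevenly spread along X. The median distance from a member to the next nearest was 14.9 kb (12.4 to 18.9) on X and 17.1 kb (16.0 to 18.6) on autosomes. Another member lay within 10 kb of 145 X members (39.6%, 34.7 to 44.7), compared with 31.9% (29.6 to 34.3) on autosomes. By arm the share varied as much between the large autosomal arms, from 25.9% on 3L to 37.5% on 2L, so that X lay near 2L. In the 23 complete 1 Mb windows of X the number of members ran from 4 to 26, with a median of 16. Across these windows it was related to the number of protein-coding genes with a Pearson r of 0.49 and a Spearman rho of 0.56. The 109 autosomal windows had a Pearson r of 0.79 and a rho of 0.63, and they include windows without any member. Windows share the library and the annotation, so these values are descriptions. The most crowded 100 kb of X held 8 members, against 8 on 2L, 9 on 2R, 9 on 3L and 7 on 3R, with summits from chrX:6654280 to 6744323. They included peaks beside CG3226 and Cdc7, between Fum2 and Pink1 (4.29-fold), the gene of a mitochondrial kinase, and the pair at RpL17. In the same stretch were peaks beside CG14442 (3.35-fold) and inside CG14440 (9.61-fold) and CG14441 (4.12-fold). The longest stretch between neighbouring members on X was 810 kb, towards the centromere, compared with 562 kb on 2L and over 1000 kb on 2R, 3L and 3R.

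Some long genes held several members, and these genes were picked after their values were seen. On X, 7 of 2197 protein-coding genes held at least 3 member summits, against 6 of 11725 on all autosomes. Gene length was not matched, and summits at ends of smaller genes inside a long gene were counted too. Inside CG1677, for example, summits lay 94, 29 and 30 bp from ends of CG2059, unc-119 and Atg5. Flo2, the flotillin 2 gene, held 5, CG1677 and dnc held 4 each, and CG32816, Evi5, Mnt and prage held 3 each. Flo2 spans 94.6 kb and contains 16 smaller protein-coding genes, among them a cluster of oxidoreductase genes. Its first member, near its lower end, had 8.78-fold. Neighbouring members were spaced by 9.75 to 12.4 kb, and the other 4 lay 696 bp from an end of CG9521, 330 bp from CG9518, 552 bp from CG45064 and 215 bp from CG9514. Their wild-type folds of 5.15, 5.26, 5.33 and 5.22 were almost equal. In the deletion list they were 8.08, 8.28, 5.71 and 6.26, so the first pair moved up slightly in place and the second pair moved down, to 1504 and 1409. Genes of this cluster are related to each other, and whether reads were divided among similar sequences was not tested.

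The order of the peaks was compared between genotypes. Each of the 1903 peaks was ranked once by its wild-type fold and once by the fold of its deletion partner, which gives 2 orders of the same length. Both X and autosomal peaks largely kept their order, with a Spearman rho across peaks of 0.94 for X and 0.95 for autosomes. The rho between the 2 sets of wild-type calls was 0.99 on X, but the list keeps peaks for the agreement of these sets, so it is no measure of the spread within a genotype. On X, 219 of 366 members stood higher in the deletion order than in the wild-type order, which is 59.8% (54.7 to 64.7). The autosomal share was 49.8% (47.3 to 52.3), with 49.4% on 2L, 48.3% on 2R, 49.0% on 3L and 52.3% on 3R. The X interval lay above the pooled autosomal interval and overlapped that of 3R (47.7 to 56.9). The shift was small, with a median rise of 19 places (7 to 31) on X against 0 (−7 to 5) on autosomes, while the median size of a move in either direction was 77.5 places on X and 87 on autosomes. Ordered by −log10 p of the second set of calls, the share on X was 55.7% (50.6 to 60.7) and that on autosomes 49.1% (46.6 to 51.6), and these intervals overlapped. With 1 list per genotype this order cannot be set against the spread between replicates, and it uses the same pair of lists as the rule. Both lists were set against the same mouse preimmune library of genotype wt, and the sex of the flies is not given. A difference between the genotypes in the mix of sexes could not be told apart from the shift on X.

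**Figure D5:**
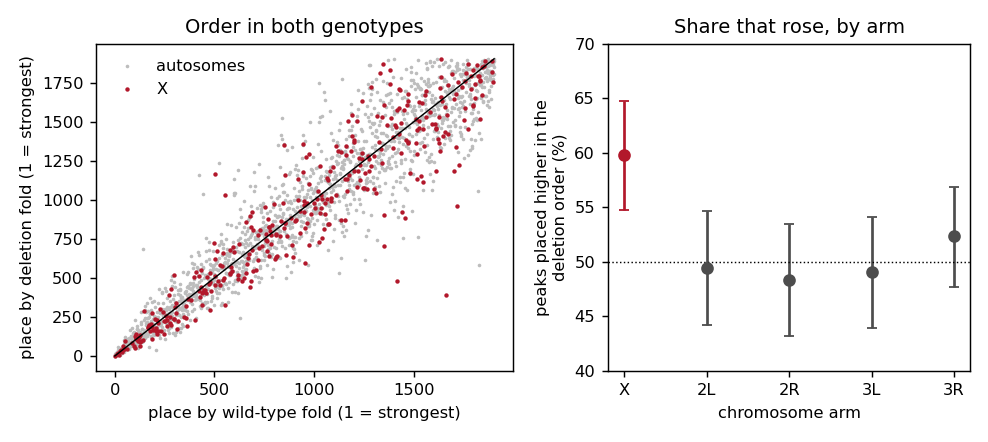
Left, place of each of the 1903 CP190 peaks by wild-type fold and by the fold of its deletion partner (1 is the strongest), X in red and autosomes in grey, with the line of equal place. Right, share of peaks placed higher in the deletion order, by chromosome arm, with 95% Wilson intervals and a dotted line at 50%; X stands at 59.8% and the large autosomal arms between 48.3% and 52.3%.

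The 2 largest rises on X came at members whose deletion partner had its summit elsewhere. The member that rose most, by 1273 places, lay 76 bp from an end of AgmNAT, the gene of agmatine N-acetyltransferase, with 3.38-fold in wild type. Its deletion partner had 23.6-fold, but the summit of that partner lay 1402 bp away, under a stronger neighbouring member of 20.5-fold that shared the partner. The next, a rise of 933 places at an end of svr, a carboxypeptidase gene, had a summit distance of 2089 bp. Of the 20 largest rises on X, 4 had summits over 100 bp apart, against 14 of all 366 members. The 366 members had 361 different partners, 10 members shared one, and at 352 members the summits of both genotypes lay within 100 bp. The median summit distance was 15 bp (12 to 17) on X and 12 bp (12 to 13) on autosomes, about the 15 bp found between the 2 sets of wild-type calls on X. Among members with summits within 100 bp the largest rise was 754 places, inside sdt, the gene of the polarity protein Stardust, from 3.24-fold in wild type to 10.5-fold in the deletion list. Further rises came inside lncRNA:CR44779 (573 places) and beside su(r) (646 places), the dihydropyrimidine dehydrogenase gene.

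The largest fall was 663 places, 75 bp from an end of rdgA, the diacylglycerol kinase gene needed in photoreceptors. It had 12.5-fold in wild type and 8.23-fold in the deletion list. Falls of 480 to 524 places followed inside Mnt (4.47-fold and 3.23-fold), inside Evi5 next to Sk1 (7.78-fold and 6.72-fold), between X11L and stas (11.6-fold and 9.55-fold) and inside Snx27 (4.54-fold and 3.80-fold). Moves of over 200 places in either direction were as frequent on X, at 20.2% (16.4 to 24.6), as on autosomes, at 20.2% (18.2 to 22.2).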

How the data were processed

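Per the submitters' processing notes, cutadapt, Bowtie2, Picard and deepTools were used, with the builds dm6 and dm3 named. The peak caller is not given in the sources used here. The authors deposited 1 peak list per antibody and genotype, in the 20-column layout of the IDR tool, which scores how well peaks repeat between 2 sets of calls. Whether these sets are the replicates is not given. The authors' fold enrichment divides ChIP by the preimmune control named with the list, the mouse library for both CP190 and HA. The list also holds the authors' −log10 p of each peak and, as deposited scores, −log10 of the global IDR and of p in either set. Lists end at a global IDR of 0.01 (both CP190, deletion HA) or 0.05 (the others). The protocol in the labels speaks of IgG where sample titles read PI. Scaffold names and arm lengths are those of dm6.

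Members were found by overlap in Python 3.11.15 with numpy 2.4.6, pandas 2.3.3 and scipy 1.17.1, and bedtools 2.31.1 returned the same 366. On simulated lists with 478 planted members, 478 were found. Figures used matplotlib 3.10.9. Genes came from a RefSeq table of Release 6 without strand or exons, with 13922 protein-coding genes on the arms. Arm length is the end of the last gene. Sequences, motifs and gene starts were not analysed here. Members and gene lists were chosen with earlier results of these data known. Named members are the 10 strongest, the 5 weakest (1 of them is not reported here), the 5 strongest of the deletion list, the 5 largest rises and falls, the 3 widest, the 3 closest to dCTCF, the most crowded 100 kb and those at listed genes.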

Additional observations from a re-analysis of the deposited data

How the results depend on the processing

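No paired analysis was possible because each group has 1 list made from both replicates, and no replicate could be left out for the same reason. Over 61 alternative values of 6 results, 56 stayed within the interval of the reported value (or within 1.5 times the number of members). The share of X peaks placed higher in the deletion order and all alternatives for order and for second-set summits were chosen after the data were examined. That share ran from 55.7% to 63.4% on X and from 49.1% to 50.6% on autosomes in 11 alternatives each. Keeping the strongest 50% of both CP190 lists left 175 X members with a median of 13.85-fold, which follows from the stricter limit. Starting from the rows of the deletion CP190 list gave 360 members and a median of 11.29-fold, on the scale of that list. Limits of 500 and 1000 bp gave 63.7% and 69.7% of X members at gene ends. Depth, unknown here, limits the weak end of every list. Gene starts could not be run without strand.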
